A study of Solanum pimpinellifolium with 6 samples.

Results

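The miR169 family was described in leaves of LA2093, a line of the wild tomato Solanum pimpinellifolium that tolerates heat. Its members were every listed small RNA whose name holds miR169 with no further digit, which gave 19 distinct sequences in 22 entries, of 629 distinct sequences in 759 entries of the whole list. Seedlings were held for 8 h at 26/18 °C (day/night; normal temperature, NT), at 33/33 °C (moderately elevated temperature, MET) or at 40/40 °C (acutely elevated temperature, AET), and the seedlings of the elevated temperatures received 1 additional irrigation with water per day. Per the study's methods, leaves of several seedlings were mixed before sequencing, and 1 small RNA (sRNA) library and 1 degradome library were made per temperature. No comparison had a replicate check, so each test below compares libraries and not temperatures, and intervals and floors cover counting error only.

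Plant miRNAs are cut as a duplex from the 2 arms of a folded precursor, the hairpin. One strand, the mature miRNA, is loaded into an Argonaute protein and guides the cutting of transcripts that pair with it, while the strand from the other arm, the star strand, is usually degraded. miR169 sequences from the 5′ arm (5p) are known for cutting transcripts of NF-YA, the subunit of the nuclear factor Y complex that contacts the CCAAT box of promoters. In Arabidopsis, miR169 and an NF-YA gene take part in the response to drought.

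Of the 19 sequences, 10 reached at least 10 normalized reads in some library or were called in a comparison. They are printed 5′ to 3′ with the seed (bases 2 to 8) in capitals, together with spi-miR169a-p5, because the results turn on which arm and which start each came from.
spi-miR169e-5p (also listed as spi-miR169d and spi-miR169b-p5): tAGCCAAGgatgacttgcct
spi-miR169b: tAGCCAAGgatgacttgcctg
spi-miR169a_ptc: cAGCCAAGgatgacttgccgactt
spi-miR169c: cAGCCAGGgatgacttgccga
spi-miR169a-p5: tTGCAGCCagggatgacttgc
spi-miR169f-p5_nta: aGAGTGGAttgcagccaggga
spi-miR169e-3p: tGGCAAGCatctttggcgact
spi-miR169a-3p_ath (22 nt): tCGGCAAGttgtccctggctac
spi-miR169d-3p_stu (22 nt): aGCAGGTCatctttagctagct
spi-miR169d-3p_stu (21 nt): gCAGGTCAtctttagctaact
spi-miR169b-p3_bna: tCCTTGGCtacatctttcttt
The seed AGCCAAG was shared by 4 members (spi-miR169e-5p, spi-miR169b, spi-miR169a_ptc and spi-miR169ab_mes), and GCAGTCT was shared by 2 members with few reads, spi-miR169a-3p_stu and spi-miR169h-3p_aly. The other 13 members each had a seed of their own, and none of the 15 seeds occurred in a listed sequence outside the family. A stretch of 11 bases, GGATGACTTGC, was held by 7 members, all of the 5p form, and by 0 of the 610 other listed sequences. The spi-miR169f-p5_nta sequence lacked it.

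Listed hairpin positions, whose genome build was not given in the sources used here, placed 13 member hairpins on 4 chromosomes. There were 7 on chromosome 7, 3 on chromosome 3, 2 on chromosome 8 and 1 on chromosome 1, and 2 members (spi-miR169a_ptc and spi-miR169ab_mes) had no position. The 20-nt spi-miR169e-5p sequence occurred exactly in 8 of 512 listed hairpins, each of them a miR169 hairpin, and spi-miR169b in 4. Reads of these sequences can therefore not be assigned to 1 hairpin. Some listed raw reads were not whole (spi-miR169b had 13.3 in NT, 11.3 in MET and 14.3 in AET), as values split over several places would be. The sources used here do not state whether the listed value is the share of 1 place or the sum over places, so some results on such sequences are also given with each value multiplied up to whole reads.

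The 2 hairpins that held the members with most reads are printed with their listed 5p and 3p sequences in capitals, since the positions within them matter below. The spi-miR169e hairpin lay on the plus strand of chromosome 8 at positions 54794592 to 54794783, and the spi-miR169f-p5_nta hairpin on the minus strand of chromosome 7 at 4134715 to 4134868; n marks an undetermined base.
spi-miR169e hairpin: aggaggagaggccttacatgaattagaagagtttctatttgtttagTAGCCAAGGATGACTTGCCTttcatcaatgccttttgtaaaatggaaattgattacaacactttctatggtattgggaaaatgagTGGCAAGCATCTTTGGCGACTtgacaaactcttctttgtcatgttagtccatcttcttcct
spi-miR169f-p5_nta hairpin: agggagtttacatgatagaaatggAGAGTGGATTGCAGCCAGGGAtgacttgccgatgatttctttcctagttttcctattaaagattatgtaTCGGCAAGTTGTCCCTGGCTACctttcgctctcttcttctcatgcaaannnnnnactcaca
In the predicted fold of the spi-miR169e hairpin, 17 of the 20 bases of spi-miR169e-5p paired with spi-miR169e-3p. In that of the spi-miR169f-p5_nta hairpin, only 10 of the 21 bases of spi-miR169f-p5_nta paired with the listed 3p sequence, spi-miR169a-3p_ath (22 nt).

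The family held 368 raw reads in NT, 489 in MET and 288 in AET, which was 489, 407 and 259 normalized reads in that order of temperature. It was a small family: its share of the reads of all distinct listed sequences was 0.122% in NT, 0.115% in MET and 0.0730% in AET. Reads were found for 15 of the 19 sequences in NT, 16 in MET and 12 in AET. The values of each sequence are shown on a log axis in the plot of normalized reads by library.

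**Figure D1:**
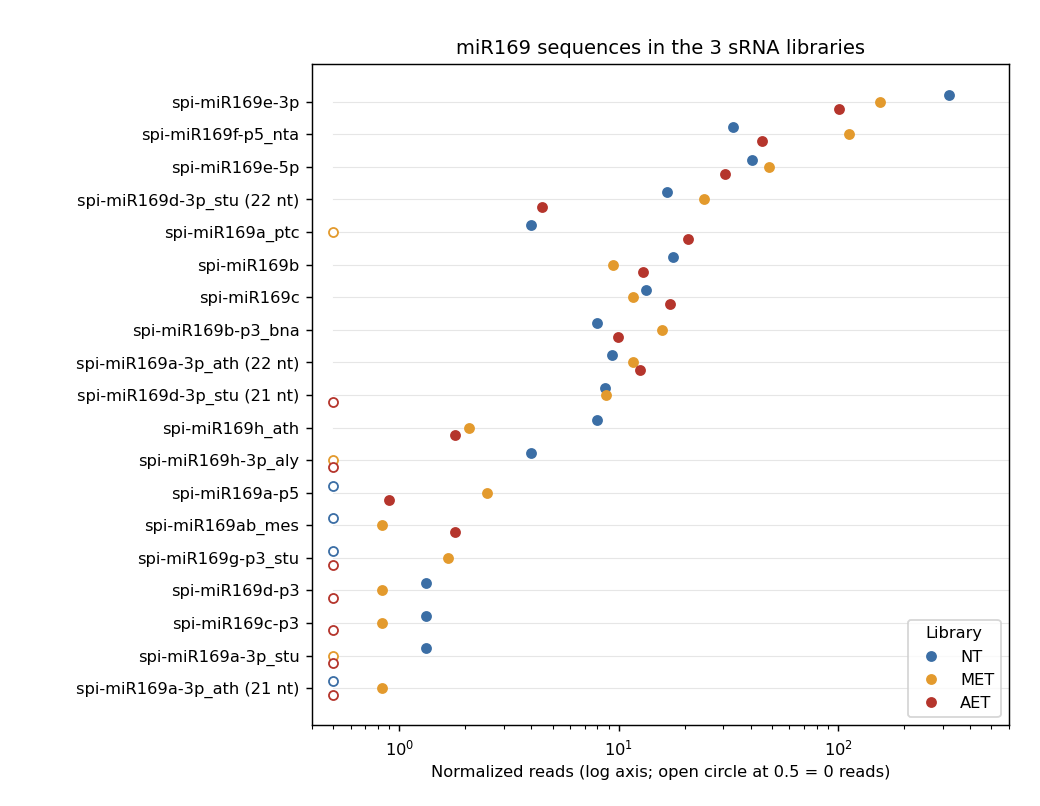
Normalized reads (log axis) of the 19 miR169 sequences in the NT, MET and AET sRNA libraries, 1 point per library; an open circle marks 0 reads. spi-miR169e-3p had the most reads in NT (322), MET (155) and AET (101), and every sequence from spi-miR169h-3p_aly downwards had 0 reads in at least 1 library.

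The sequence with most reads in every library was not a 5p sequence but spi-miR169e-3p, the strand opposite spi-miR169e-5p. It had 242 raw reads in NT, 186 in MET and 113 in AET (322, 155 and 101 normalized reads), the highest in NT and the lowest in AET. Its normalized reads were 2.08-fold lower in MET than in NT (log2 ratio -1.05, 95% interval -1.34 to -0.77, exact conditional binomial) and 3.17-fold lower in AET than in NT (log2 ratio -1.66, -2.00 to -1.34). Calls followed the study's rule, which asks for p of at most 0.05 in both a chi-square and a two-sided Fisher's exact test together with a 2-fold difference (log2 ratio of 1 or more in either direction). By that rule spi-miR169e-3p fell in MET against NT (Fisher's exact p = 1.53e-11) and in AET against NT (Fisher's exact p = 4.87e-23). Against MET, AET had 1.53-fold fewer reads of it (log2 ratio -0.61, -0.96 to -0.27, Fisher's exact p = 0.0014), under the fold threshold. The call for MET against NT rested on the scaling: with the libraries scaled to the study's totals of valid reads, the log2 ratio was -0.63 and there was no call, while the median of all sequences rose by 0.42. The share of spi-miR169e-3p within the family does not use that scaling, and was 65.8% in NT (95% Clopper-Pearson interval 60.7 to 70.6%), 38.0% in MET (33.7 to 42.5%) and 39.2% in AET (33.6 to 45.1%). With split reads made whole these shares were 50.4% in NT, 27.8% in MET and 28.8% in AET. Such a share also depends on the reads of the other members. Among those, spi-miR169f-p5_nta had 25 raw reads in NT and 135 in MET, which by itself lowers the MET share.

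Its partner arm was not called. spi-miR169e-5p, a 20-base sequence with the shared seed, had 30.3 raw reads in NT, 58 in MET and 34 in AET (40.3, 48.3 and 30.5 normalized reads), highest in MET. Its log2 ratio was 0.26 in MET against NT (-0.38 to 0.96), -0.40 in AET against NT (-1.14 to 0.37) and -0.66 in AET against MET (-1.32 to -0.03), with no call. Within the hairpin, spi-miR169e-3p made up 89.0% of the reads of both arms in NT (84.6 to 92.4%), 76.2% in MET (70.4 to 81.4%) and 76.9% in AET (69.2 to 83.4%). The 3p share was thus 12.7 percentage points lower in MET than in NT and 12.1 points lower in AET than in NT, and both differences passed a two-sided Fisher's exact test adjusted by Benjamini-Hochberg over the 83 hairpins with enough reads (adjusted p = 0.00323 and adjusted p = 0.0110). Between AET and MET the share differed by 0.64 points (adjusted p = 1 by the same Fisher's exact test). Of the 83 hairpins, 13.3% were called in MET against NT, 20.5% in AET against NT and 32.5% in AET against MET. Because the 5p sequence occurs in 8 listed hairpins, some of which overlap, its reads cannot be assigned to this hairpin alone. With split reads turned back into whole reads, the 3p share was 51.7% in MET against 72.7% in NT, 52.6% in AET against 72.7% in NT, and both calls held (adjusted p = 6.82e-07 and adjusted p = 2.02e-05, Fisher's exact test). That count gives all reads of the 5p sequence to this hairpin. Neither count therefore shows whether the arm share changed at the spi-miR169e hairpin itself.

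**Figure D2:**
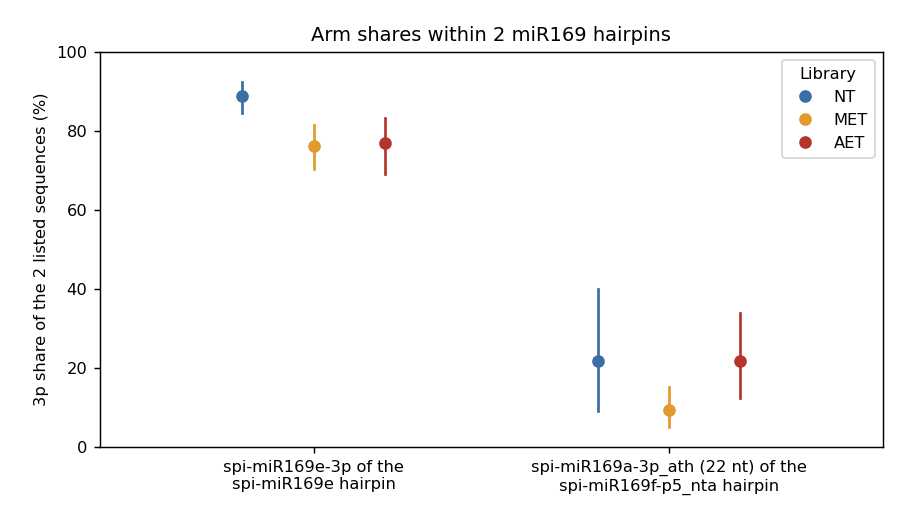
Share of the 3p sequence (%) among the reads of both listed sequences of the spi-miR169e and the spi-miR169f-p5_nta hairpin, per library, with 95% Clopper-Pearson intervals. The spi-miR169e-3p share was 89.0% in NT and 76.2 and 76.9% in MET and AET. Reads of its partner spi-miR169e-5p cannot be assigned to this hairpin alone, as that sequence occurs in 8 listed hairpins. For the other hairpin the 3 intervals overlap.

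The second pattern was that of spi-miR169f-p5_nta, which had its highest value in the MET library. It had 25 raw reads in NT, 135 in MET and 50 in AET (33.2, 112 and 44.9 normalized reads). It rose 3.38-fold in MET against NT (log2 ratio 1.76, 1.14 to 2.44, Fisher's exact p = 6.00e-13) and was 2.51-fold lower in AET than in MET (log2 ratio -1.33, -1.82 to -0.85, Fisher's exact p = 1.45e-07), both called. AET against NT was not called (log2 ratio 0.43, -0.29 to 1.19, Fisher's exact p = 0.0699). Its share of the family was 6.79% in NT (4.44 to 9.87%), 27.6% in MET (23.7 to 31.8%) and 17.4% in AET (13.2 to 22.2%). With split reads of the other members made whole it was 5.21% in NT, 20.1% in MET and 12.8% in AET.

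Other members matched the same hairpin. spi-miR169f-p5_nta took bases 25 to 45 of the hairpin. The 5p members spi-miR169c and spi-miR169a-p5 each differed by 1 base from the hairpin listed under their own name (A7G for spi-miR169c and A10G for spi-miR169a-p5, hairpin base first, positions from the 5′ end of the mature sequence) and matched exactly, among the 512 listed hairpins, only the spi-miR169f-p5_nta hairpin, at bases 36 to 56 and 33 to 53. spi-miR169f-p5_nta thus started 11 bases before spi-miR169c and shared 10 bases with it, CAGCCAGGGA, a stretch that these 3 members held and 0 of the 610 other sequences did. In the predicted fold, 20 of the 22 bases of the 3p sequence spi-miR169a-3p_ath (22 nt) paired with the spi-miR169c stretch, against 10 with spi-miR169f-p5_nta. By position and pairing, spi-miR169c and not spi-miR169f-p5_nta faced the 3p sequence.

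spi-miR169c had 10 raw reads in NT, 14 in MET and 19 in AET (log2 ratio -0.19 in MET against NT, 0.36 in AET against NT and 0.55 in AET against MET). spi-miR169a-3p_ath (22 nt) had 7, 14 and 14 (0.33, 0.43 and 0.11 in the same comparisons), and spi-miR169a-p5 had 0, 3 and 1. None of the 3 was called. The share of spi-miR169f-p5_nta against spi-miR169c was 71.4% in NT (53.7 to 85.4%), 90.6% in MET (84.7 to 94.8%) and 72.5% in AET (60.4 to 82.5%); this pair was set side by side after its values were seen and was not tested. For the pair listed on the hairpin, the share of spi-miR169a-3p_ath (22 nt) was 9.40% in MET against 21.9% in NT (Fisher's exact test, adjusted p = 0.244) and 21.9% in AET against 9.40% in MET (Fisher's exact test, adjusted p = 0.0715), with no call. The interval of the share was 9.28 to 40.0% in NT and 12.5 to 34.0% in AET, so these few reads cannot show whether it differed.

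**Figure D3:**
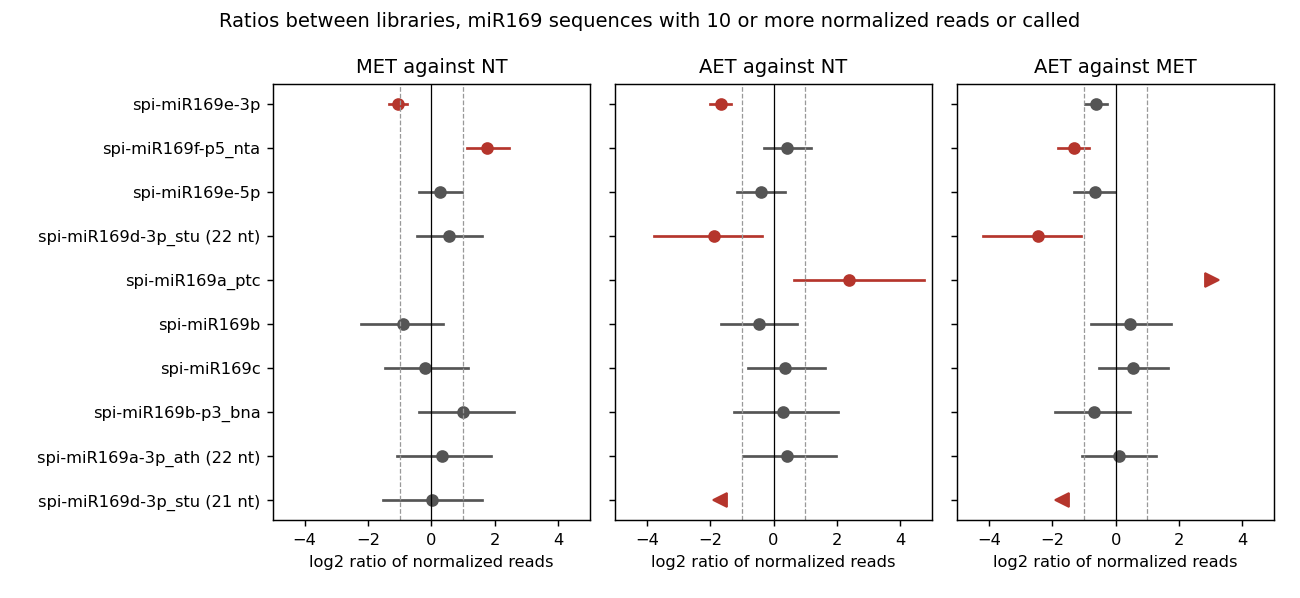
log2 ratios of normalized reads between libraries for the 10 miR169 sequences with 10 or more normalized reads or a call, with exact conditional binomial 95% intervals; triangles are bounds against a floor of 3 reads, red marks a call and dashed lines a log2 ratio of 1 in size. spi-miR169e-3p lies at -1.05 and -1.66 against NT, and spi-miR169f-p5_nta at 1.76 in MET against NT and -1.33 in AET against MET.

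A pair of 3p sequences, both named spi-miR169d-3p_stu, had their lowest values in the AET library. They came from different hairpins on the plus strand of chromosome 7, at 2174689 to 2174866 for the 22-nt and 2181124 to 2181311 for the 21-nt sequence, 6257 bases apart. The 22-nt sequence had 12.5 raw reads in NT, 29.5 in MET and 5 in AET (16.6, 24.6 and 4.49 normalized reads). It was 5.48-fold lower in AET than in MET (log2 ratio -2.45, -4.20 to -1.10, Fisher's exact p = 1.06e-04) and 3.70-fold lower in AET than in NT (log2 ratio -1.89, -3.79 to -0.36, Fisher's exact p = 0.0141), both called. The call against NT did not survive Benjamini-Hochberg adjustment over all sequences (Fisher's exact test, adjusted p = 0.0559). The 21-nt sequence had 6.5 raw reads in NT, 10.5 in MET and 0 in AET. With AET set to a floor of 3 reads per library, which is 2.69 normalized reads in AET, it was 3.21-fold lower in AET than in NT (Fisher's exact p = 0.00433) and 3.25-fold lower in AET than in MET (Fisher's exact p = 0.00392). With counting error in both libraries, the exact interval of the log2 ratio reached up to -1.09 against NT and -1.22 against MET. Both of its calls were lost when only sequences with at least 10 normalized reads were tested. With split reads made whole, the 21-nt sequence had 13 reads in NT, 21 in MET and 0 in AET. Fisher's exact p was then 2.12e-05 in AET against NT and 2.32e-05 in AET against MET. The 22-nt sequence had 25, 59 and 10 whole reads (Fisher's exact p = 9.24e-04 and 9.21e-07 in the same comparisons). All were called, and these p-values were not adjusted. In MET against NT neither of the 2 was called (log2 ratios 0.56 and 0.02).

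The reverse was seen for spi-miR169a_ptc, a 24-nt sequence with the shared seed and no listed position. It had 3 raw reads in NT, 0 in MET and 23 in AET (3.99, 0 and 20.7 normalized reads), so that most of its reads were in the AET library. It rose in AET against NT (log2 ratio 2.37, 0.65 to 4.75, Fisher's exact p = 1.99e-04). With MET set to the floor of 3 reads, it was 8.26-fold higher in AET than in MET (Fisher's exact p = 3.82e-07). With counting error in both libraries, the exact interval of that log2 ratio reached down to 2.63. With 3 reads in NT and 0 in MET no ratio was computed between these libraries (Fisher's exact p = 0.126).

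The remaining sequences above 10 normalized reads showed no call. spi-miR169b, which is spi-miR169e-5p with 1 more base at the 3′ end, had 17.7 normalized reads in NT, 9.44 in MET and 12.9 in AET (log2 ratio -0.91 in MET against NT, -0.46 in AET against NT and 0.45 in AET against MET). Its share of the reads of both forms was 30.2% in NT (17.2 to 46.1%), 15.9% in MET (8.24 to 26.7%) and 29.2% in AET (16.95 to 44.1%). None of the 3 differences was called by Fisher's exact test adjusted over 38 pairs of length variants (adjusted p = 0.530 for MET against NT, 1 for AET against NT and 0.351 for AET against MET), where 0%, 5.26% and 7.89% of all pairs were called in the same order of comparisons. With whole reads in place of split reads the same shares, 16.3% in MET against 30.5% in NT and 29.7% in AET against 16.3% in MET, were called (adjusted p = 0.0285 and adjusted p = 0.0191, Fisher's exact test over 40 pairs), so this comparison depended on how reads of shared sequences were counted.

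The pair spi-miR169b-p5 and spi-miR169b was listed as the 2 arms of 1 hairpin on chromosome 7 (2174513 to 2174767, plus strand), yet both are the same 5p form. They lay at bases 1 to 20 and 221 to 241 of a sequence of 255 bases, with 0 bases paired between them in the predicted fold. This stretch overlapped the hairpin of the 22-nt spi-miR169d-3p_stu by 79 bases, on the same strand.

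The entry on chromosome 1 (41798511 to 41798551, minus strand) was likewise unusual. Its sequence had 41 bases, with a listed folding energy of -7.1 kcal/mol and a listed minimal folding free energy index of 0.4, and its 2 members, spi-miR169a-3p_ath (21 nt) and spi-miR169b-p3_bna, shared 12 bases instead of lying on opposite arms. spi-miR169b-p3_bna had 6 raw reads in NT, 19 in MET and 11 in AET (log2 ratio 0.99 in MET against NT, -0.39 to 2.60, Fisher's exact p = 0.0688, with no call), and spi-miR169a-3p_ath (21 nt) had 0, 1 and 0.

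The other members had few reads. spi-miR169h_ath, the spi-miR169e-5p sequence with 2 further bases at its 5′ end, had 6 raw reads in NT, 2.5 in MET and 2 in AET, with no call. With split reads made whole, at 12, 5 and 4 reads, it was called lower in MET against NT (log2 ratio -1.94, Fisher's exact p = 0.00681) and in AET against NT (log2 ratio -2.15, Fisher's exact p = 0.0141). spi-miR169h-3p_aly of the same chromosome 3 hairpin had 3 raw reads in NT and 0 in MET and AET. spi-miR169ab_mes, spi-miR169d-p3, spi-miR169c-p3, spi-miR169g-p3_stu and spi-miR169a-3p_stu had 0 to 2 raw reads per library. The 3p strands of the spi-miR169d and spi-miR169c hairpins, spi-miR169d-p3 and spi-miR169c-p3, thus had at most 1 read each, whereas that of the spi-miR169e hairpin was the member with most reads. The spi-miR169d-p3 sequence differed from its hairpin at 1 base (C11T).

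Grouped by form, the 7 sequences that hold GGATGACTTGC had 62.7 raw reads in NT, 89.8 in MET and 95.3 in AET, or 83.3, 74.9 and 85.6 normalized reads. Their share of the family was 17.1% in NT (13.4 to 21.4%), 18.4% in MET (15.1 to 22.1%) and 33.0% in AET (27.6 to 38.7%). These sums depend on how split reads are counted: made whole, the 7 sequences had 207 normalized reads in NT, 192 in MET and 174 in AET, and 32.5% of the family in NT, 34.5% in MET and 49.5% in AET. The share was highest in AET under both counts. The 8 other 3p sequences of the folded hairpins had 42.5 normalized reads in NT, 48.3 in MET and 17.1 in AET, lowest in AET, where 6 of the 8 had 0 reads. Of those 6, only the 21-nt spi-miR169d-3p_stu had more than 3 raw reads in any library. The largest falls were those of the spi-miR169d-3p_stu sequences. In contrast, spi-miR169a-3p_ath (22 nt) had 9.31 normalized reads in NT, 11.7 in MET and 12.6 in AET. spi-miR169e-3p and the sum of these 3p sequences were both lower in AET than in NT. In AET against MET spi-miR169f-p5_nta, spi-miR169e-3p and the other 3p sequences all had lower sums. These sums were not tested.

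**Figure D4:**
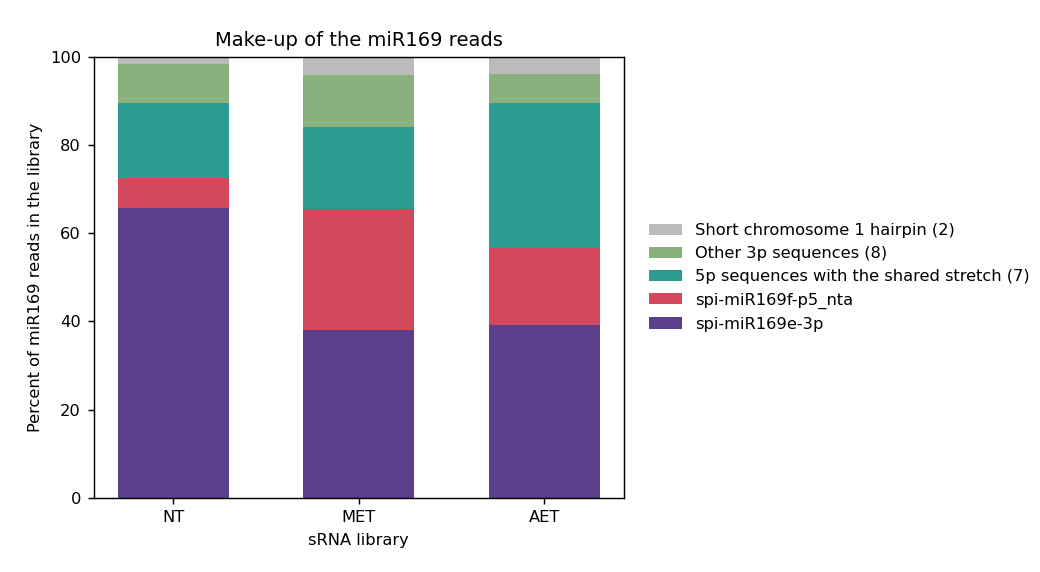
Percent of the miR169 raw reads of each sRNA library by form, as stacked bars that add to 100%. spi-miR169e-3p was 65.8% of the family in NT, 38.0% in MET and 39.2% in AET, spi-miR169f-p5_nta reached 27.6% in MET, and the 7 sequences with the shared 5p stretch reached 33.0% in AET.

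Set against the whole list, 1 member was called higher and 1 lower in MET against NT, where 6.68% of the 629 sequences were called higher and 5.09% lower. In AET against NT, 1 member was called higher and 3 lower (12.7% higher and 8.27% lower over all sequences), and in AET against MET 1 higher and 3 lower (11.3% higher and 9.06% lower). With 2 to 4 of 19 members called in a comparison, the counts are small and were not tested against those backgrounds. Medians of the log2 ratio were taken over members with reads in both libraries compared and at least 10 normalized reads in 1 of them. That left 8 members per comparison, but not the same 8. spi-miR169a_ptc entered only in AET against NT, through its AET value, and spi-miR169b-p3_bna only in the comparisons with MET. The median was 0.29 in MET against NT (0.01 over 270 sequences of the list), -0.02 in AET against NT (0.15 over 282) and -0.64 in AET against MET (0.02 over 286). With spi-miR169a_ptc, at 0 reads in MET, set to its bound, the median in AET against MET was -0.61 over 9 members.

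The degradome libraries, which sequence the 5′ ends of cut transcripts, gave little on the family's targets. Symbols and annotations of the 362 target rows were searched for NF-Y, NFY, HAP2, HAP3, HAP5 or CCAAT, and 0 rows held 1 of these terms, under miR169 or any other miRNA. A subunit annotated in other words would be missed. NF-YA transcripts were not searched for miR169 sites, as the sources used here held no transcript sequences. Member names had 8 rows for 6 sites in 5 transcripts, and 13 of the 19 sequences had no row. At every one of the 6 sites the evidence was 1 read in 1 library, the weakest of the categories used by the authors (category 4). One read was worth 84.9 TPB (tags scaled to the raw reads of the library) in NT, 87.2 in MET and 92.1 in AET. Over the whole table, 60.9% of the 233 sites had at most 1 read in any library.

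In NT, spi-miR169e-5p was listed under each of its 3 names at position 676 of the GC1 transcript (Solyc03g079850.2.1, a guanylyl cyclase), and spi-miR169a-3p_stu at position 3114 of TPLATE (Solyc11g068640.1.1, an ARM repeat protein; in Arabidopsis TPLATE takes part in endocytosis). The SAM transcript (Solyc05g006320.2.1, a sterile alpha motif protein) was listed for both spi-miR169d-3p_stu sequences, at position 384 with 1 read in MET for the 21-nt and at position 385 with 1 read in AET for the 22-nt sequence. In AET, spi-miR169d-p3 was listed at position 203 of CDC25 (Solyc03g053110.2.1, a rhodanese or cell cycle control phosphatase) and spi-miR169g-p3_stu at position 1026 of DA1 (Solyc01g105180.2.1). Both of these members had 0 sRNA reads in the AET library. The alignment scores of the 8 rows were 3 to 4, where a higher score means more mismatches and the median of all rows was 3.5. With 1 read in 1 library, no member site could pass the test between libraries (lowest p = 0.480, two-sided Fisher's exact test), so the absence of a call there carries no information. Of all 233 sites, 0.858% were called in MET against NT, 1.29% in AET against NT and 1.29% in AET against MET. A library with 0 reads at a site allows up to 3 reads there, so presence in 1 library at this depth does not show a difference.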

How the data were processed

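Per the labels and the study's methods, sRNAs of 19 to 24 nt were kept, matched to miRBase 21.0 with at most 1 mismatch, and folded. The authors deposited raw reads per sequence as estimated counts, some of them not whole, and normalized reads. The degradome was processed by the authors with CleaveLand 3.0 against iTAG 2.3 transcripts, and its deposited tables gave tags scaled to the raw reads (TPB), categories and an alignment score. Tables of the authors' own fold changes and p-values were not used. Entries with identical sequences were counted once, which left 301702, 424963 and 394910 raw reads in NT, MET and AET. Raw degradome reads were 11774232, 11471728 and 10853424.

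Python 3.11.15 with scipy 1.17.1, pandas 2.3.3 and ViennaRNA 2.7.2 were used. The chi-square and Fisher's exact tests were run over all 629 sequences on rounded normalized reads against the total of all listed entries. Arm and length-variant pairs needed at least 10 raw reads in each library. Members and lists were chosen with earlier results of these data known. The sequences named with values were those that reached 10 normalized reads in some library or were called, and all other members are given by their reads. Hairpin sequences came from the study's supplementary sequences. In simulated data, changes of 4-fold were recovered for 93.9 to 100% (over the 3 comparisons) of the changed sequences with enough reads, changes of 2-fold, the call threshold, for 44.1 to 52.2%, and 2.24 to 4.83% of unchanged sequences were called. With 1 library per temperature, the variation between libraries of the same temperature was not known, so these are not the error rates of the real comparisons.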

Additional observations from a re-analysis of the deposited data

Results flagged for a closer look

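The AET and MET libraries, both set against NT, differed from each other in 4 miR169 sequences by the direct comparison of AET with MET. The log2 ratio was -2.45 for the 22-nt spi-miR169d-3p_stu and -1.33 for spi-miR169f-p5_nta. With the library at 0 reads set to the floor of 3 reads, it was -1.70 for the 21-nt spi-miR169d-3p_stu (0 reads in AET) and 3.05 for spi-miR169a_ptc (0 reads in MET). Their exact intervals reached up to -1.22 and down to 2.63. Each of these log2 ratios rests on 1 library per temperature, and 11.3% of all sequences were called higher and 9.06% lower in that comparison.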

How the results depend on the processing

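No paired analysis was possible because there was 1 library per temperature and the labels carry no replicate numbers. The counts of called members kept within 1.5 times of their main values under raw reads in the tests, totals over distinct sequences, median-of-ratios scaling, scaling to valid reads, Benjamini-Hochberg adjustment, a minimum of 10 normalized reads and no fold threshold. No called direction was reversed, but scaling to valid reads turned 2 ratios that were not called, spi-miR169c in MET against NT (0.24) and the 22-nt spi-miR169a-3p_ath in AET against MET (-0.18). With split reads made whole, spi-miR169h_ath was also called lower in MET against NT and in AET against NT, so that 3 and 5 members were called. The number of pairs listed as arms and called was then 2 in MET against NT (1 before) and 1 in AET against MET (0 before). The added pair was spi-miR169b-p5 and spi-miR169b in both comparisons, which are the same 5p form and not 2 arms. The same reads gave the 1 length-variant pair called (0 before) in MET against NT and in AET against MET. Scaling to valid reads moved the median of all sequences by 0.42 in MET against NT, 0.14 in AET against NT and -0.29 in AET against MET. In MET against NT the calls over all sequences were then 69 higher and 28 lower (71.1% higher, against 56.8% before), the call of spi-miR169e-3p was lost (-0.63), and spi-miR169a_ptc and spi-miR169h-3p_aly, at 3 reads in NT and 0 in MET, were called lower. Over the whole list, Benjamini-Hochberg adjustment left 39 of 74 calls in MET against NT and 84 of 128 in AET against MET, and dropping the fold threshold gave 134 and 198. Without that threshold spi-miR169e-3p was also called lower in AET against MET (-0.61). The low reads of most members limit these comparisons: only 10 of 19 sequences reached 10 normalized reads or a call.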
